A study of Mus musculus with 24 samples.

Results

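Acetylation of histone H3 at lysine 27 (H3K27ac) was measured by ChIP-seq at the ends of genes in neuronal nuclei of the mouse dentate gyrus. Gene-end peaks were the peaks that the deposited annotation placed at a transcription termination site (TTS) or in a 3' UTR and that were under 10000 bp wide. This rule took 4759 of 144154 peaks (3.30%), of which 2566 were TTS peaks and 2193 were 3' UTR peaks. It used only annotation and width, and no measured level. Male C57BL/6J mice, 12 weeks old, received an intraperitoneal injection 1 h before a test, either of vehicle (Veh) or of 30 mg/kg CI-994, which inhibits the class I histone deacetylases and is written HDACi here. In contextual fear conditioning (CFC) the mouse explored a chamber for 3 min and then received 2 shocks to the feet, each lasting 1 s at 0.2 mA, whereas Context mice spent the same time there with no shock. The brain was taken 1 h afterwards. The groups of 3 libraries each are named by injection and behaviour, as in Veh-Context and HDACi-CFC. Nuclei were sorted for NeuN, and the sample titles name the hippocampus where the protocol names the dentate gyrus. Drug was assigned mouse by mouse, but a cage went through 1 protocol as a whole, so that an effect of shock and one of cage cannot be told apart. The series text counts 3 treatments with 4 replicates, whereas the labels give 4 groups of 3. Nothing in the labels says whether replicate libraries came from separate mice or from pools, so every p-value measures only the spread between these libraries.

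Acetyl groups on histone tails are added by acetyltransferases and removed by deacetylases, and H3K27ac is best known from active promoters and enhancers. The end of a gene is where the transcript is cut and polyadenylated and where RNA polymerase is released. In the compact parts of the mouse genome it can also lie within the promoter or enhancer of the neighbouring gene, so acetylation there need not belong to the gene that ends. Fear conditioning is a form of associative learning that engages the hippocampus, and class I deacetylase inhibitors raise histone acetylation in neurons.

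Library totals over all peaks ran from 6639158 to 16734757 counts, and log counts of libraries of 1 group correlated at 0.924 to 0.976. The promoter peak of Rbfox3, which encodes NeuN, held 148 to 208 CPM (counts per 1e6 of the scaled library total) in Veh-Context, 219 to 253 in Veh-CFC, 110 to 157 in HDACi-Context and 272 to 280 in HDACi-CFC. All 12 markers of dentate granule neurons and 2 of 14 interneuron markers had a promoter peak. The lowest count in every library was 1, and 272 of 57108 counts in gene-end peaks sat at that floor, 102 of them in HDACi-Context 3.

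Of the gene-end peaks, 72 held 1 or more whole microRNA hairpins, 75 hairpins in all. MicroRNAs are short RNAs that pair through their seed, bases 2 to 8, with sites in target transcripts, and mature microRNAs with 1 seed are grouped as a family. The mature sequences below, from RefSeq (GRCm38.p6), are those whose peaks carry the results on microRNA genes, and capitals mark the seed. The peak at Mir6999 was called in the test of whether shock acted differently with and without drug, the peak at Mir345 changed with shock and drug, and the peak at Mir128-2 had a high level that did not pass the test for shock. The products miR-410-3p and miR-344d-3p share the seed AUAUAAC, and let-7d lies in a peak that fell. The acetylation of these peaks was measured, not the amount of any microRNA.
mmu-miR-6999-3p (chr2:91944872-91944893, minus strand): cUUCAGCUguccuccuuucugu
mmu-miR-345-5p (chr12:108836989-108837010, plus strand): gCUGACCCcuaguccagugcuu
mmu-miR-128-3p (chr9:112118644-112118664, minus strand): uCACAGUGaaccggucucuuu
mmu-miR-410-3p (chr12:109743764-109743784, plus strand): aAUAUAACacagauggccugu
mmu-miR-344d-3p (chr7:61683127-61683148, minus strand): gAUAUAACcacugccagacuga
mmu-let-7d-5p (chr13:48536078-48536099, minus strand): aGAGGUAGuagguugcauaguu

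A gene-end peak can also hold the start of a gene. RefSeq starts of another gene lay inside 111 gene-end peaks and the start of the same gene inside 16, whereas 4521 held none, and 111 on a chromosome with no start table were not assigned. The motif TATAAA, searched on both strands in windows from 250 bases before to 50 after a start, was found in 16 of the 151 windows of starts inside gene-end peaks (10.6%) and in 4473 of 32851 windows in the table (13.6%). The share was thus no higher at these starts than over the table. A run of 30 bases around the motif is shown for 3 starts, with the motif in capitals: that of Slc37a4 inside the peak at the end of Mir7085, that of Pcdh8 inside the peak at the end of Gm9748, and that of Krtap11-1 inside the peak at its own end. The peak at Mir7085 went from 11.8 to 19.8 CPM (median 17.1) in Context to 24.9 to 35.5 CPM (median 32.5) in CFC libraries, a log2 change of 0.91 ± 0.10 (adjusted p = 1.41e-08), where ± is the standard error here and below (edgeR). That at Gm9748 changed by 0.53 on the log2 scale after shock (adjusted p = 4.09e-06), and that of Krtap11-1 rose with drug. These changes of peaks are given beside the motif as a description.
Slc37a4 (chr9:44398318-44398347, plus strand): cggcTATAAAgagcctgggtggaggagaga
Pcdh8 (chr14:79771317-79771346, minus strand): cagcTATAAAgacggaggcggcgctcgcca
Krtap11-1 (chr16:89571186-89571215, minus strand): gataTATAAAaagcccagggtcctgaagta

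Gene-end peaks belonged to 4165 named genes, 3683 with 1 such peak and 482 with more, up to 8. Of these peaks 4413 lay at protein-coding genes, 196 at long non-coding RNA genes and 120 at microRNA genes. The symbol of the gene that ended there matched that of the nearest start named in the deposited table for 2153 peaks (45.2%). Genes under different symbols in RefSeq and in that table would be missed by such a match. How many peaks had the start of another gene as the nearest was therefore not determined. Where strand and end could be read, the peak spanned the annotated end of its gene in 1625 of 3651 cases (44.5%), and its centre lay within 2000 bp of that end in 79.4%. The median width was 1177 bp, beside 1188 bp over all peaks. The median level was 2.58 CPM per kb of peak, below the 2.82 of all peaks and the 3.51 of promoter-TSS peaks, with no test of that difference. By the deposited chromatin state, 1870 gene-end peaks (39.3%) were in the class named control, 1477 (31.0%) in the active enhancer state, 922 (19.4%) in the primed enhancer state, 354 (7.44%) in the strong promoter state and 135 (2.84%) in repressed regions.

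The width limit left out 78 end peaks. Just inside it were the peaks of Smarcc2, Map3k3 and Fndc7, 9978, 9994 and 9998 bp wide, with log2 changes after shock of 0.99, 0.81 and 0.05. Just outside were those of Bricd5, Fancc and Zeb2os, 10003, 10113 and 10138 bp wide, with log2 changes of 0.77, 0.49 and 0.75. The values of these named peaks overlapped across the limit. Over all 78 wider peaks the median log2 change after shock was 0.46, beside 0.36 over the gene-end peaks inside the limit. Of the wider peaks 84.6% rose, beside 44.3% of those inside, as given at the end.

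Gene-end peaks with the highest level per length were at Cebpd, Elmo2 and H1f4. The end peak of Cebpd, a transcription factor of the C/EBP family, had a mean of 10.5 CPM per kb, that of Elmo2, a regulator of Rac signalling, 8.15 CPM per kb, and that of H1f4, a linker histone, 7.61 CPM per kb. All 3 appear again among the peaks that changed with drug.

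Shock was compared first. Of the 4746 gene-end peaks that passed the filter on low counts (13 did not), 2103 (44.3%) rose and 307 (6.47%) fell after shock with vehicle and drug mice in 1 comparison (edgeR's quasi-likelihood test, Benjamini-Hochberg adjusted p under 0.05 over all 144014 peaks tested). Over all peaks, 21.4% rose and 19.7% fell. The median log2 change was 0.36 at gene ends and -0.03 over all peaks. The direction at gene ends did not depend on the scaling of libraries, since the median was 0.28 with plain library totals and 0.30 with a level-dependent (loess) scaling. Exon and 5' UTR peaks moved the same way: exon peaks rose in 51.9% and fell in 5.51% of cases (median 0.50), and 5' UTR peaks rose in 56.7% (median 0.46). Promoter-TSS peaks rose in 35.2% (median 0.24), intron peaks in 21.3% (median -0.02) and intergenic peaks in 12.2% (median -0.20), and 30.3% of intergenic peaks fell. No test was made of the difference between these classes.

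The share of each library's counts that fell in gene-end peaks showed the same shift. It was 2.36%, 2.47% and 2.46% in Veh-Context and 2.45%, 2.27% and 2.14% in HDACi-Context. It was 3.11%, 2.76% and 2.66% in Veh-CFC and 2.92%, 2.84% and 2.86% in HDACi-CFC. All 6 CFC libraries were above all 6 Context libraries, with no overlap.

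**Figure D1:**
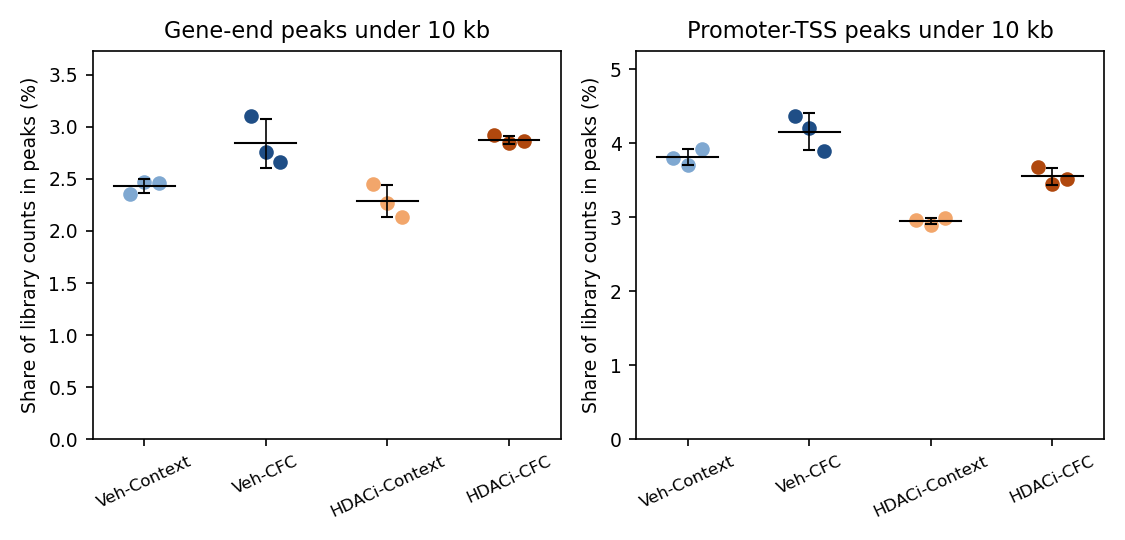
Share of each library's counts in gene-end peaks and in promoter-TSS peaks (percent, vertical axis) for the 3 libraries of each group, with the group mean and SD. The 6 CFC libraries lie between 2.66% and 3.11% at gene ends and the 6 Context libraries between 2.14% and 2.47%.

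In vehicle mice alone, 553 gene-end peaks (11.7%) rose and 26 (0.548%) fell, against 4.41% and 2.74% of all peaks. In drug mice, 1921 (40.5%) rose and 264 (5.56%) fell, against 20.2% and 17.8% of all peaks. Medians were 0.29 in vehicle and 0.42 in drug mice, and -0.004 and -0.05 over all peaks. These comparisons share no library, and 506 peaks rose in both, which is 91.5% of those that rose in vehicle mice and 26.3% of those that rose in drug mice. The larger count in drug mice is no test of a difference, which the interaction below gives peak by peak. The vehicle count rested on few libraries: it was 579 in all, 80 without Veh-CFC 1, 100 without Veh-Context 1, 374 without Veh-CFC 2, 385 without Veh-Context 2 and 331 with DESeq2. With plain library totals, the split in drug mice was 1641 higher and 484 lower, as the median of all peaks moved from -0.05 to -0.18 and that of gene ends from 0.42 to 0.29.

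**Figure D2:**
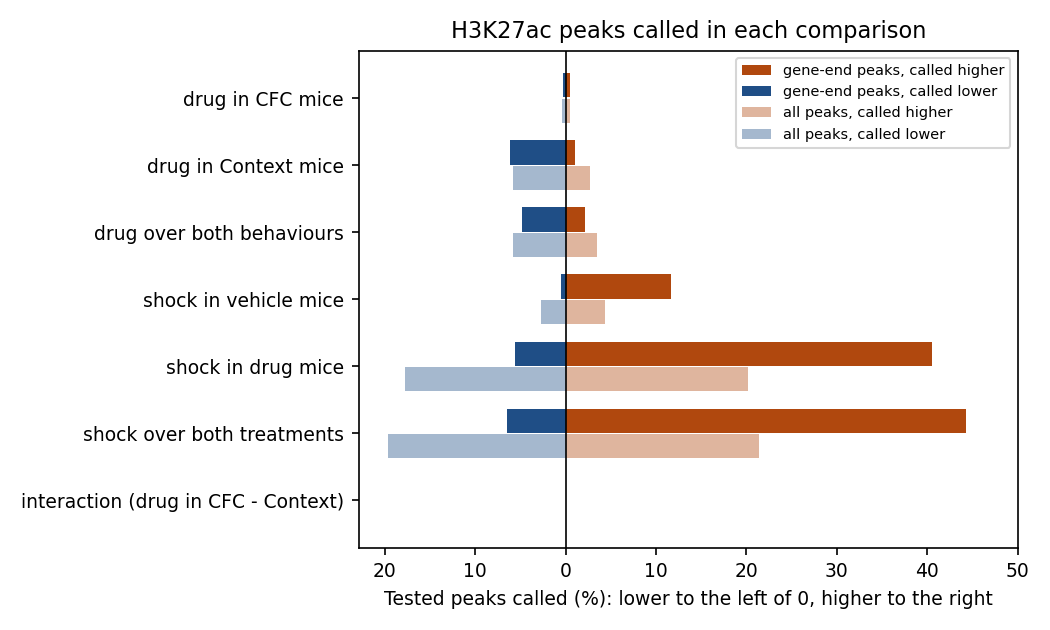
Number of gene-end peaks called higher or lower in each of the 7 comparisons, as a percentage of the 4746 tested (horizontal axis), beside the percentage over all peaks. In drug mice 40.5% of gene-end peaks were higher after shock, against 20.2% of all peaks.

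Markers of other cells moved with shock too. The promoter peak of Rbfox3 rose (log2 change 0.73). Among genes with a gene-end peak, the strongest promoter peak rose in 59.9% of pairs of end and promoter (median 0.40). Of peaks within 1 kb of a start and not at gene ends, 46.7% rose (median 0.32). The marker counts stand beside these shares. Promoter peaks of oligodendrocyte markers rose for 11 of 13 genes with a peak (median log2 change 0.82), and their summed level was 154 to 168 CPM in Veh-Context, 196 to 263 in Veh-CFC, 110 to 127 in HDACi-Context and 207 to 237 in HDACi-CFC. Astrocyte markers rose for 7 of 9 (median 0.45), with sums of 86.4 to 106, 122 to 127, 84.6 to 95.8 and 111 to 131 CPM in the same order. Microglial markers rose for 6 of 7 (median 0.86), with sums of 34.0 to 39.2, 42.8 to 55.8, 28.3 to 32.7 and 36.9 to 38.3 CPM. Granule neuron markers rose for 6 of 12 and fell for 1 (median 0.23), with sums of 551 to 602, 618 to 762, 426 to 529 and 535 to 698 CPM. Markers of CA pyramidal neurons rose for 7 of 7 (median 0.83) and of oligodendrocyte precursors for 6 of 7 (median 0.90), while 1 of 2 interneuron and 1 of 3 endothelial and mural markers rose. The oligodendrocyte and precursor lists share Olig1, Olig2 and Sox10, so their counts overlap. Of the lists, 1 of 14 oligodendrocyte, 2 of 11 astrocyte and 5 of 12 microglial markers had no promoter peak, and no marker with a peak was at 0, since the count floor was 1. Their part in the result was not tested, and in these nuclei a change in the mix of cells and a change in acetylation per cell cannot be told apart. At gene ends themselves, peaks of oligodendrocyte precursor markers rose in 7 of 8 cases (median 1.34), of CA pyramidal markers in 3 of 3 (median 2.02), of oligodendrocyte markers in 6 of 9 (median 0.86) and of microglial markers in 1 of 3 (median 0.69). The CA pyramidal peaks lie at 2 genes, and with loess scaling 1 of 3 rose (median 0.79). Loess scaling gave 6 of 8 for oligodendrocyte precursor, 5 of 9 for oligodendrocyte and 1 of 3 for microglial markers. Of 6 peaks of astrocyte markers 2 rose and 2 fell (median -0.19), 1 of 2 endothelial and mural peaks fell, and the 1 interneuron peak did not pass the test (log2 change -0.19). The 3 gene-end peaks of granule markers had a median of -0.16 and did not pass the test (edgeR), while 2 of the 3 fell with plain library totals and with loess scaling.

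Among the peaks with the largest rise after shock was the end of Ndufb7, which encodes a subunit of mitochondrial complex I (chr8:83571350-83573688, TTS, active enhancer state). It held 0.747, 1.47 and 1.91 CPM in Veh-Context, 6.94, 5.2 and 2.83 in Veh-CFC, 1.04, 0.58 and 0.136 in HDACi-Context and 6.3, 6.55 and 6.3 in HDACi-CFC. All 6 CFC libraries were above all 6 Context libraries, and the log2 change was 2.65 ± 0.25 (adjusted p = 2.76e-09), from 6 libraries against 6 (comparisons within 1 treatment have 3 against 3). It was 1.88 ± 0.35 (adjusted p = 0.0025) in vehicle mice and 3.43 ± 0.35 (adjusted p = 1.82e-08) in drug mice. The end of Mcrip1 (chr11:120542588-120543403, 3' UTR) went from 0.058 to 0.514 CPM (median 0.286) in Context to 0.708 to 3.21 CPM (median 1.9) in CFC. The end of Lfng, a glycosyltransferase that modifies Notch (chr5:140616127-140616758, TTS), went from 0.058 to 0.556 CPM (median 0.222) to 0.708 to 3.73 CPM (median 1.59). Neither overlapped between Context and CFC. Their log2 changes were 2.83 ± 0.41 (adjusted p = 6.15e-07) and 2.87 ± 0.45 (adjusted p = 2.99e-06), with some Context counts at the floor of 1, so that these sizes depend on the fit.

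Some gene ends were low in HDACi-Context libraries and far higher in HDACi-CFC. The 3' UTR peak of Scrt1, a neuronal transcriptional repressor (chr15:76517887-76518553), held 0.0695, 0.058 and 0.068 CPM in HDACi-Context, each at a count of 1, and 2.75, 1.04 and 2.27 in HDACi-CFC. In Dagla, which encodes the enzyme that makes the endocannabinoid 2-AG, the 3' UTR peak (chr19:10245625-10248057) held 0.626, 0.174 and 0.068 CPM in HDACi-Context and 9.49, 7.59 and 6.64 in HDACi-CFC. In vehicle mice these peaks spread widely: Dagla held 0.373, 1.47 and 1.98 in Veh-Context and 9.25, 3.39 and 0.849 in Veh-CFC, and those groups overlapped. No fold is given for Scrt1. For Dagla the log2 change in drug mice was 4.77 ± 0.88 (adjusted p = 0.00317), a size that depends on the fit because 1 library was at the floor.

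Of the 307 peaks that fell, 167 were over 20 kb from the nearest start, where 1326 of the 4746 gene ends lie, and 158 lay at genes over 50 kb long, where 1444 lie. The 3' UTR peak of Tdrd3, a Tudor domain protein that reads arginine methylation (chr14:87513182-87515025, control state), held 9.33, 8.98 and 9.04 CPM in Veh-Context and 6.95, 8.81 and 8.98 in HDACi-Context. It held 3.73, 4.35 and 5.95 in Veh-CFC and 3.62, 4.26 and 3.53 in HDACi-CFC. Every CFC library was below every Context library, with a log2 change of -1.05 ± 0.13 (adjusted p = 2.89e-08), while the promoter of Tdrd3 rose by 0.53 (adjusted p = 0.00749). The end of Emcn, an endothelial sialomucin (chr3:137430680-137433083), fell from 9.72 to 13.7 CPM (median 10.6) to 4.75 to 7.95 CPM (median 5.34), with a log2 change of -0.93 ± 0.13 (adjusted p = 1.47e-07). Grm5, a metabotropic glutamate receptor gene (3' UTR peak, chr7:88134636-88134994), fell from 0.971 to 2.06 CPM (median 1.33) to 0.336 to 0.797 CPM (median 0.477), with a log2 change of -1.35 ± 0.35 (adjusted p = 0.00173). Neither Emcn nor Grm5 overlapped between Context and CFC.

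Immediate early genes, which neurons switch on within minutes of activity, had 14 gene-end peaks at 11 of the 35 genes of the list. After shock 7 of the 14 rose (50%) and 1 fell (7.14%), with a median of 0.49. These shares were near the 44.3% and 6.47% of all gene ends, beside 21.4% and 19.7% of all peaks. The peaks that rose were at the AP-1 genes Fosb, Jun, Junb and Jund, at Btg2, an antiproliferative factor, and at Dusp1 and Dusp6, phosphatases of MAP kinases. The end of Junb (chr8:84976710-84977287, TTS) held 1.19, 1.47 and 2.57 CPM in Veh-Context, 3.6, 4.56 and 3.11 in Veh-CFC, 0.904, 0.869 and 0.544 in HDACi-Context and 2.68, 3.22 and 3.02 in HDACi-CFC. CFC and Context did not overlap, and the log2 change was 1.50 ± 0.22 (adjusted p = 5.21e-07). At Btg2 the 3' UTR peak (chr1:134072857-134079098) went from 15.9 to 28.3 CPM (median 23.7) to 37.9 to 44.9 CPM (median 39.7), a log2 change of 0.85 ± 0.09 (adjusted p = 5.31e-10). Changes were smaller at Fosb, with 0.79 ± 0.18 (adjusted p = 0.000682), and at Jun, with 0.49 ± 0.09 (adjusted p = 3.21e-05). The call for Jund, at 1.69 ± 0.46 (adjusted p = 0.00302), was lost with loess scaling (log2 change 0.24, adjusted p = 0.695).

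The 1 immediate early gene end that fell was the 3' UTR peak of Bdnf, a neurotrophin (chr2:109724511-109728088, control state). It held 13.8, 12.8 and 12.3 CPM in Veh-Context, 7.45, 11.6 and 10.1 in Veh-CFC, 14, 16.4 and 16.7 in HDACi-Context and 10.5, 9.15 and 10.7 in HDACi-CFC. CFC libraries were all below Context libraries, with a log2 change of -0.52 ± 0.11 (adjusted p = 0.000136), and the promoter peak of Bdnf had a log2 change of -0.26 (adjusted p = 0.0117). The remaining peaks did not pass the test: 4 at Nr4a3 (log2 changes from -0.09 to 0.49), 1 at Egr3 (0.19 ± 0.10 (adjusted p = 0.152)) and 1 at Fosl2 (-0.31 ± 0.24 (adjusted p = 0.309)).

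Genes of vesicle release had 21 gene-end peaks, of which 16 rose after shock and 5 did not pass the test (median log2 change 0.75). They included the 3' UTR peak of Syt7, a calcium sensor of vesicle fusion (chr19:10446842-10456571), which held 34.8, 35.8 and 41 CPM in Veh-Context, 67.4, 56 and 55.4 in Veh-CFC, 34.5, 25.4 and 19.2 in HDACi-Context and 59.4, 68.5 and 63.4 in HDACi-CFC. CFC and Context libraries did not overlap, and the log2 change was 0.98 ± 0.10 (adjusted p = 2.37e-09). Vamp2, a vesicle SNARE (chr11:69088830-69094878, 3' UTR), went from 19.9 to 32.1 CPM (median 24.7) to 36.9 to 46.9 CPM (median 44.8), with a log2 change of 0.75 ± 0.09 (adjusted p = 5.95e-09). Unc13a, a priming factor, went from 2.11 to 4.8 CPM (median 3.82) to 4.67 to 9.58 CPM (median 7.65), with a log2 change of 1.03 ± 0.16 (adjusted p = 3.97e-06). Of 2 named peaks at the end of Bsn, an active zone scaffold, the narrower (1081 bp) changed by 1.67 ± 0.26 (adjusted p = 2.38e-06) and the wider (3578 bp) by 0.68 ± 0.12 (adjusted p = 1.85e-05).

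Voltage-gated ion channel genes had 31 peaks, of which 18 rose and 7 fell (median 0.56). Cacna1h, a T-type calcium channel, went from 0.136 to 1.4 CPM (median 0.79) to 1.7 to 4.47 CPM (median 3.46), with no overlap and a log2 change of 2.03 ± 0.26 (adjusted p = 4.76e-08). Glutamate receptor and postsynaptic density genes had 26 peaks, of which 10 rose and 5 fell. Their median was 0.08 and turned to -0.004 with plain library totals. Within that list Grm5 fell, as given above. Genes of GABA receptors and synthesis had 6 peaks, of which 1 rose and 2 fell (median -0.22).

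Of 29 peaks at genes of cAMP, calcium and MAP kinase signalling, 13 rose and 1 fell (median 0.32). Map2k2, a MAP kinase kinase, went from 2.79 to 6.18 CPM (median 4.48) to 8.48 to 13.4 CPM (median 9.45), a log2 change of 1.21 ± 0.15 (adjusted p = 3.07e-08). Of 12 peaks at genes of deacetylases, acetyltransferases and acetyl readers, 7 rose and 5 did not pass the test (median 0.41). One of them, at the end of the acetyltransferase Kat5, held 8.59, 8.98 and 10.0 CPM in Veh-Context, 21.6, 14.1 and 17.6 in Veh-CFC, 9.11, 8.23 and 4.35 in HDACi-Context and 18.1, 17.5 and 16.3 in HDACi-CFC. CFC and Context did not overlap at Kat5, with a log2 change of 1.10 ± 0.13 (adjusted p = 4.55e-08). Of 9 peaks at genes of mRNA end processing and termination, 4 rose (median 0.43), among them Ssu72, a phosphatase of the RNA polymerase tail (1.12 ± 0.15 (adjusted p = 1.81e-07)). Ribosomal and translation factor genes had 10 peaks, of which 4 rose (median 0.44), mitochondrial respiration genes 7, of which 4 rose (median 0.62), and cytoskeletal and axonal transport genes 20, of which 6 rose (median 0.27). Dync1h1, the heavy chain of cytoplasmic dynein, had the largest change named in the last list, 2.34 ± 0.27 (adjusted p = 4.26e-09). These lists were counted with earlier results of the same data known, and the share that rose ran from 16.7% for GABA genes to 76.2% for vesicle release genes, beside 44.3% of gene ends as a whole.

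**Figure D3:**
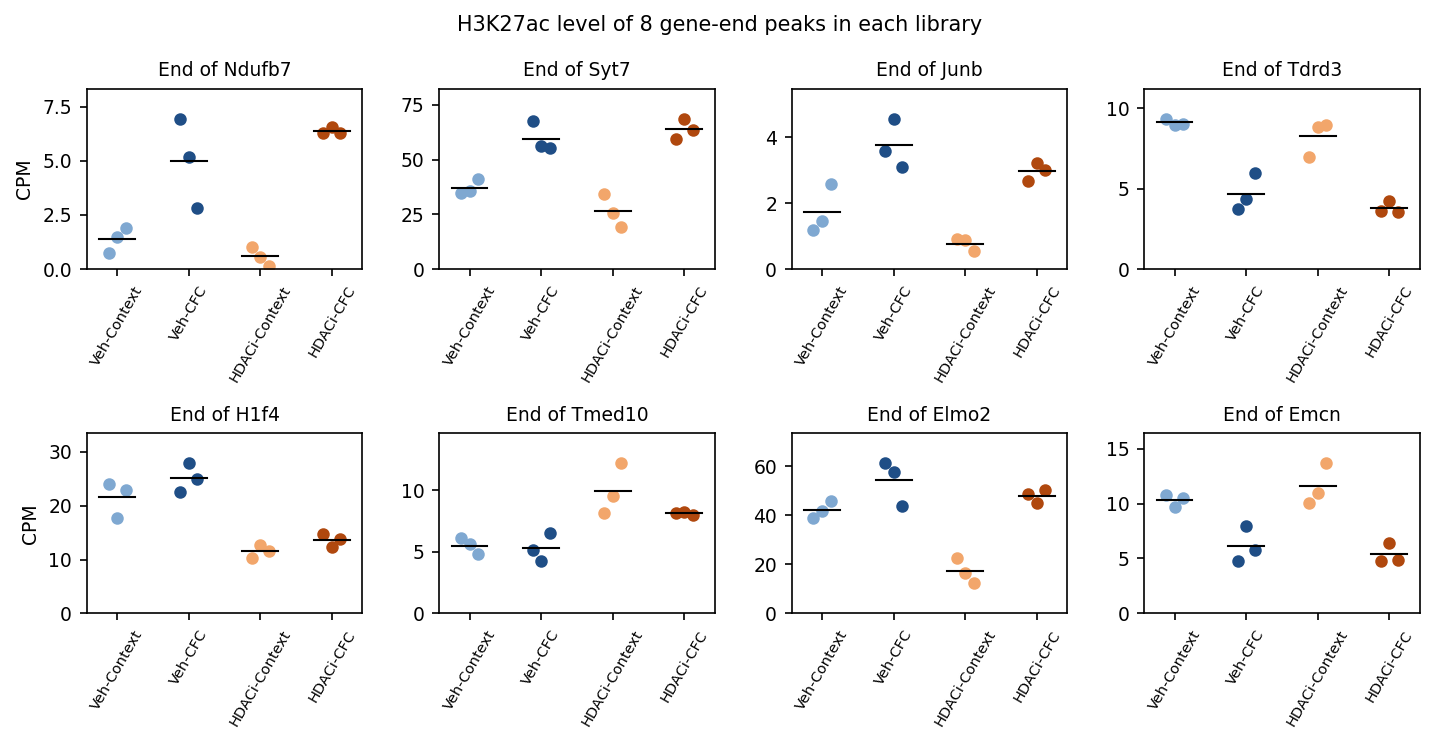
Level (CPM, linear axis from 0) of 8 named gene-end peaks in each of the 12 libraries by group, with a point for each library and a black line for the group mean. At Ndufb7 the 6 CFC libraries lie between 2.83 and 6.94 CPM, above the 6 Context libraries.

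The response to shock varied with distance to the nearest start. Gene-end peaks with an edge within 1 kb of it rose in 433 of 661 cases (median 0.55), those at 1 to 5 kb in 582 of 1044 (median 0.57), those at 5 to 20 kb in 749 of 1715 (median 0.40) and those farther away in 339 of 1326 (median 0.08). In peaks that were not at gene ends the medians in the same bins were 0.32, 0.17, 0.05 and -0.21. By chromatin state the medians were 0.57 for strong promoters, 0.49 for active enhancers, 0.44 for repressed regions, 0.27 for the control class and 0.18 for primed enhancers. When state and distance were fixed together, the median at gene ends was above that of other peaks in 21 of 21 combinations with a tested peak of each kind, of which 18 had at least 20 of each. For active enhancers over 20 kb from a start, 40.5% of gene ends and 16.6% of other peaks rose. For primed enhancers at 1 to 5 kb it was 48.8% and 21.3%. The other peaks pool all remaining classes and were mostly intron and intergenic peaks. Exon (median 0.50) and 5' UTR peaks (median 0.46) as a whole rose no less than gene ends (median 0.36). These classes were not compared with gene ends at fixed state and distance. No test was made of these differences, and members of a bin are not replicates.

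**Figure D4:**
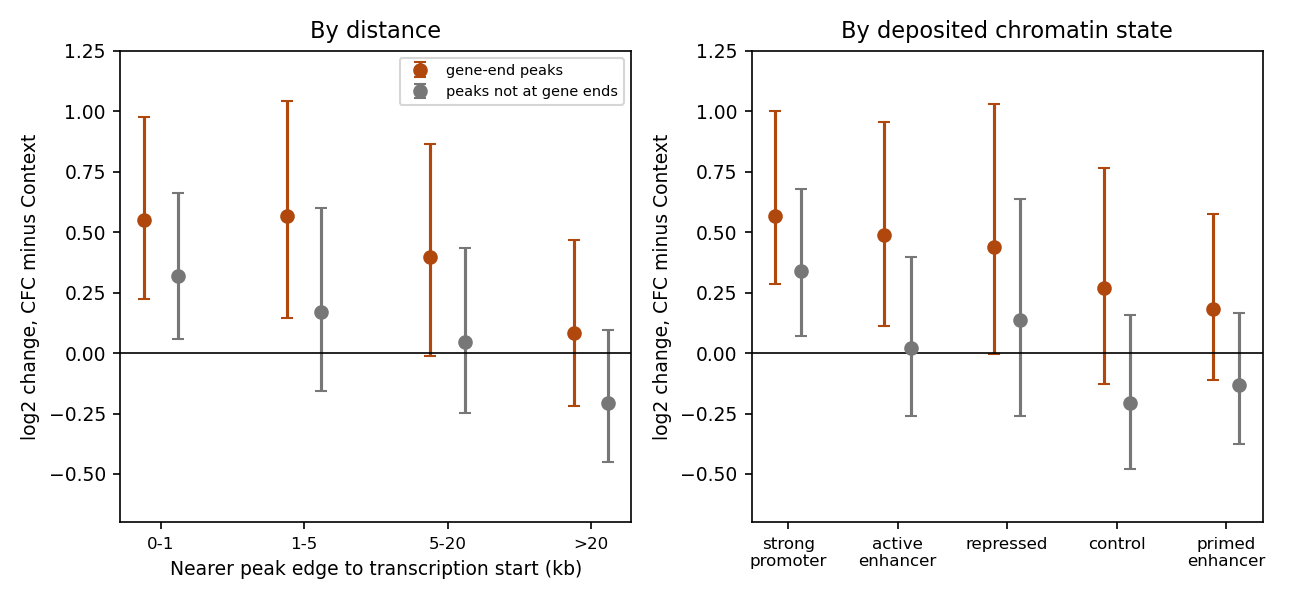
Median log2 change after shock over both treatments (vertical axis) by distance from the peak edge to the nearest start and by chromatin state, for gene-end peaks and for other peaks, with points for medians and bars for the middle quartiles. Gene-end medians run from 0.55 within 1 kb to 0.08 beyond 20 kb, above the 0.32 to -0.21 of other peaks, which are mostly intron and intergenic.

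Gene length and level also sorted the response. At genes under 5 kb, 419 of 772 peaks rose (median 0.51), and at genes of 5 to 20 kb 735 of 1352 did (median 0.51). At genes of 20 to 50 kb it was 504 of 1168 (median 0.35), and at longer genes 441 of 1444 (median 0.14). In the lowest quartile by mean level (0.425 to 1.62 CPM) 524 of 1177 rose, with a median of 0.65, and in the highest (6.26 to 59.8 CPM) 649 of 1190 rose, with a median of 0.31. Fitted changes of low peaks have the larger errors. Peaks at long non-coding RNA genes rose in 49 and fell in 34 of 196 cases (median 0.07), whereas those at protein-coding genes rose in 1988 and fell in 266 of 4400 (median 0.38).

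To see whether an end moved with its own promoter, 3874 gene-end peaks were paired with the strongest peak within 1 kb of the start of the same gene. After shock 1742 of these ends rose, and the paired promoter had also risen for 1289 of them (74.0%), whereas over all pairs 2321 promoters rose (59.9%). Of the 234 paired ends that fell, 76 had a promoter that rose, a smaller share than the 59.9% of all pairs. The promoter fell for 17 of the 234 (7.26%), whereas 1.81% of all paired promoters fell. Ends that rose over a falling promoter numbered 9. Across pairs, which share libraries and often lie in 1 gene, Pearson's r between end and promoter changes was 0.37 and Spearman's rho 0.40, as a description only. Median changes were 0.37 at ends and 0.40 at their promoters.

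**Figure D5:**
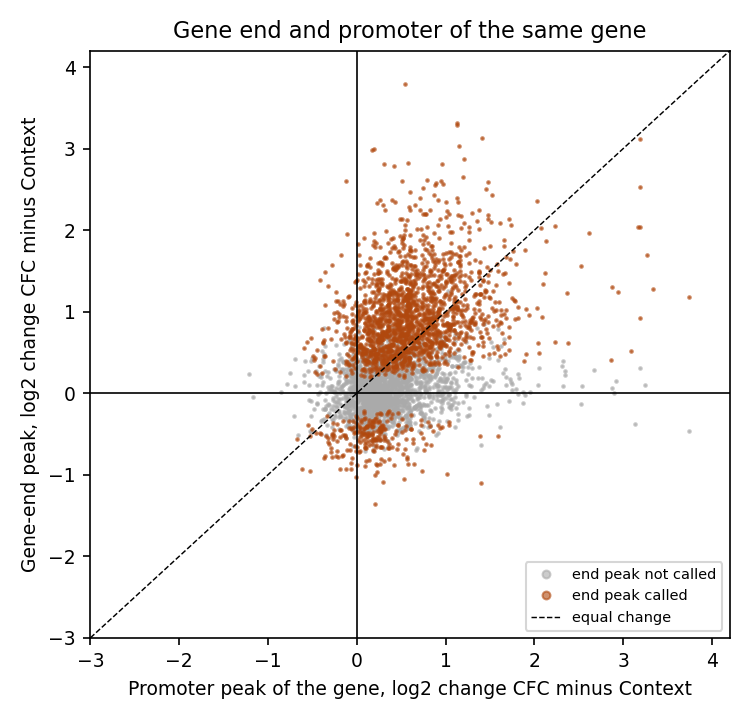
Log2 change after shock at gene-end peaks (vertical axis) against that of the promoter peak of the same gene (horizontal axis) for 3874 pairs, with ends that passed the test marked. Most ends that rose lie to the right of 0 (Pearson's r = 0.37 across pairs).

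Of the 72 peaks that held a microRNA hairpin, 41 rose (56.9%) and 5 fell (6.94%) after shock (median 0.50), beside 44.3% and 6.47% of all gene ends and 21.4% and 19.7% of all peaks. The peak at Mir410, which also holds Mir369, went from 1.22 to 3.06 CPM (median 1.89) to 2.69 to 4.93 CPM (median 4.52), a log2 change of 0.98 ± 0.19 (adjusted p = 9.5e-05). The peak with Mir344d-1 and Mir344d-2, whose 3p product shares the seed AUAUAAC with miR-410-3p, went from 12.5 to 17.7 CPM (median 15.2) to 9.35 to 14.9 CPM (median 10.8), a log2 change of -0.41 ± 0.10 (adjusted p = 0.00138). Context and CFC overlapped in both peaks, which moved in opposite directions. The peak at let-7d fell by 0.62 ± 0.19 (adjusted p = 0.00806) on the log2 scale. Mir128-2 lay in a peak of 33.1 CPM that ranged only from 29.8 to 34.4 CPM (median 32.1) in Context to 33 to 35.1 CPM (median 34.3) in CFC, with a log2 change of 0.09 ± 0.08 (adjusted p = 0.367).

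Drug was compared next. Every scaling used here was taken from the peak counts themselves, so a change with drug, like one with shock, is relative to other peaks. A rise or fall shared by all peaks would not be seen. In Context mice 51 gene-end peaks rose (1.07%) and 291 fell (6.13%) with CI-994, against 2.73% and 5.85% of all peaks. The share that fell was thus near the background, and the median was -0.15 at gene ends and -0.01 over all peaks. Promoter-TSS peaks fell in 26.1% of cases and exon peaks in 9.93%. Plain library totals gave 83 higher and 225 lower. The count of 342 also moved with single libraries, to 127 without Veh-Context 3, 160 without HDACi-Context 2, 173 without HDACi-Context 3 and 702 without HDACi-Context 1. Beside it, and beside the 26.1% of promoter-TSS peaks that fell, promoter peaks of oligodendrocyte markers fell for 4 of 13 genes. Those of microglial markers fell for 4 of 7, of granule neuron markers for 5 of 12 and of astrocyte markers for 2 of 9. For CA pyramidal and for oligodendrocyte precursor markers it was 1 of 7 each. The promoter peak of Rbfox3 fell too (log2 change -0.42), whereas no interneuron or endothelial and mural marker did. At gene ends, 3 of 8 peaks of oligodendrocyte precursor markers (median -1.03), 1 of 9 of oligodendrocyte markers and 1 of 6 of astrocyte markers fell. Their part in the result was not tested.

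Falls were more frequent near starts. Within 1 kb of a start 142 of 661 gene-end peaks fell (21.5%), at 1 to 5 kb 47 of 1044, at 5 to 20 kb 72 of 1715 and beyond that 30 of 1326. Peaks that are not at gene ends fell at a like rate within 1 kb of a start (20.9%), so this is a pattern of peaks near starts as a whole. Of the 111 peaks that held the start of another gene 42 fell (median -0.46), compared with 239 of 4508 with no start inside (median -0.15). Strong promoters fell in 94 of 354 cases at gene ends (26.6%) and in 24.8% elsewhere. Of the paired ends 218 fell, and for 59 of them (27.1%) the promoter of the same gene fell as well, near the 878 of all 3874 paired promoters that fell (22.7%).

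Over both behaviours 101 gene-end peaks rose (2.13%) and 230 fell (4.85%) with drug, against 3.52% and 5.81% of all peaks, with medians of -0.09 and -0.02. The count of 331 was 217 without HDACi-Context 2 and 500 without HDACi-Context 1. Histone genes, gathered by symbol after values were seen, had 28 gene-end peaks at 27 genes, 22 of the peaks on chromosome 13. Of these 12 fell and 1, at H3f3b, rose (median log2 change -0.36), with the same counts under plain library totals and loess scaling. The genes are near copies of each other and share neighbourhoods, so their peaks are not independent. Falls were also frequent at promoters in the same comparison. Of 354 gene-end peaks in the strong promoter state 85 fell and 6 rose, and of 8160 promoter-TSS peaks 2365 fell and 55 rose. Whether histone gene ends fell more often than other peaks at promoters was not tested. The end of H1f4 (chr13:23619713-23622075, TTS, strong promoter state), a peak that also holds the start of the core histone gene H2bc6, held 24, 17.7 and 23 CPM in Veh-Context, 10.4, 12.8 and 11.5 in HDACi-Context, 22.6, 27.9 and 24.9 in Veh-CFC and 14.7, 12.4 and 13.9 in HDACi-CFC. Every drug library was below every vehicle library, and the log2 change was -0.90 ± 0.10 (adjusted p = 1.19e-08), with -0.92 ± 0.14 (adjusted p = 9.96e-06) in Context and -0.88 ± 0.14 (adjusted p = 0.000735) in CFC mice. The end of H2bc8, another core histone gene (chr13:23571786-23573137), fell from 8.73 to 14.3 CPM (median 9.75) to 4.08 to 7.64 CPM (median 5.77), a log2 change of -0.87 ± 0.12 (adjusted p = 1.82e-06). The end of H3c15 (chr3:96237997-96238491) changed by -1.06 ± 0.27 (adjusted p = 0.00772). The end of Rab11fip5, an effector of recycling endosomes, lies over the start of Sfxn5 (chr6:85333110-85335762) and fell from 14.4 to 18.4 CPM (median 17.8) to 7.35 to 11.7 CPM (median 9.88), a log2 change of -0.86 ± 0.10 (adjusted p = 9.95e-08). Drug and vehicle did not overlap at H2bc8, H3c15 or Rab11fip5.

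Cebpd, the gene end with the highest level per length, also fell with drug. It held 43.4, 39.5 and 41.7 CPM in Veh-Context, 22.2, 24.6 and 21.4 in HDACi-Context, 48.3, 54.6 and 54.9 in Veh-CFC and 35.4, 38.7 and 39.2 in HDACi-CFC. Every drug library was below every vehicle library, with a log2 change of -0.67 ± 0.08 (adjusted p = 8.74e-08).

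Gene ends that rose with drug included that of Tmed10, a carrier protein of the early secretory pathway (chr12:85340360-85342490, 3' UTR, primed enhancer state). It held 6.12, 5.59 and 4.78 CPM in Veh-Context, 8.13, 9.5 and 12.2 in HDACi-Context, 5.14, 4.24 and 6.51 in Veh-CFC and 8.11, 8.22 and 7.98 in HDACi-CFC. All drug libraries were above all vehicle libraries, with a log2 change of 0.74 ± 0.13 (adjusted p = 7.94e-05). Rai2 (chrX:161778507-161782281, TTS) went from 5.3 to 8.06 CPM (median 6.5) to 9.85 to 13.2 CPM (median 10.4), a log2 change of 0.71 ± 0.12 (adjusted p = 4.44e-05). Insig1, a brake on sterol synthesis (chr5:28078724-28080218), went from 2.87 to 4.12 CPM (median 3.79) to 4.56 to 6.6 CPM (median 5.63), a log2 change of 0.62 ± 0.14 (adjusted p = 0.003). The end of Krtap11-1, a keratin-associated protein gene (chr16:89568784-89571395), whose start motif is shown above, changed by 0.62 ± 0.13 (adjusted p = 0.00109). None of these overlapped between drug and vehicle.

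In the gene lists few ends changed with drug in Context mice. Beside them, 1.07% of all gene ends rose and 6.13% fell, and 2.73% and 5.85% of all peaks. No call was made among 31 peaks of voltage-gated ion channel genes or 20 of cytoskeletal and axonal transport genes. The same held for 10 peaks of ribosomal and translation factor genes, 7 of mitochondrial respiration genes and 6 of GABA genes. Among the immediate early genes 2 of 14 fell, at Junb (-1.19 ± 0.34 (adjusted p = 0.021)) and at Btg2 (-0.40 ± 0.13 (adjusted p = 0.0391)). Of 21 peaks of vesicle release genes 2 fell, at Syt2 (-1.02 ± 0.33 (adjusted p = 0.0437)) and at Syt7 (-0.50 ± 0.14 (adjusted p = 0.0205)). Of 12 peaks of deacetylases, acetyltransferases and acetyl readers 1 fell, at Mta2, a subunit of the NuRD complex (-0.47 ± 0.13 (adjusted p = 0.0183)). Of 26 peaks of glutamate receptor and postsynaptic density genes 1 rose, at Dlg2, a scaffold (0.47 ± 0.15 (adjusted p = 0.045)). Of 29 peaks of cAMP, calcium and MAP kinase signalling genes 1 fell, at Crtc1, a coactivator of CREB (-1.38 ± 0.40 (adjusted p = 0.0283)), and of 9 peaks of mRNA end processing genes 1 fell, at Sympk, a scaffold of the cleavage and polyadenylation complex (-0.94 ± 0.27 (adjusted p = 0.0476)). All 8 calls but that of Sympk were lost without HDACi-Context 3, and all but that of Mta2 without Veh-Context 3 or without HDACi-Context 2. Mta2 was lost without Veh-Context 1 as well. Those of Btg2, Syt2, Syt7 and Sympk were lost with plain library totals and that of Dlg2 with DESeq2. The highest adjusted p over the alternatives was 0.365 at Junb, 0.259 at Btg2, 0.252 at Syt2, 0.222 at Crtc1, 0.219 at Dlg2, 0.176 at Syt7 and 0.171 at Sympk, and it was lower at Mta2.

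In CFC mice 22 gene-end peaks rose (0.464%) and 14 fell (0.295%) with drug, against 0.483% and 0.435% of all peaks, so both shares were near the background, with medians of 0.01 and -0.01. At unadjusted p under 0.05, 276 were higher and 240 lower. The count of 36 was 68 without Veh-CFC 1 and 5 to 23 without Veh-CFC 2, Veh-CFC 3, HDACi-Context 2 or any of the HDACi-CFC libraries. The end of Tsc22d1, a leucine zipper transcription regulator (chr14:76507155-76509878), held 7.71, 7.21 and 6.09 CPM in Veh-CFC and 13, 12.3 and 14.4 in HDACi-CFC, with no overlap and a log2 change of 0.91 ± 0.17 (adjusted p = 0.00311). Tmem151a (3' UTR peak, chr19:5078968-5081985) held 14, 11.1 and 9.63 CPM in Veh-CFC and 20.5, 21.2 and 20.3 in HDACi-CFC, again with no overlap and a log2 change of 0.83 ± 0.16 (adjusted p = 0.00354). In Context mice Tmem151a held 8.14, 5.89 and 7.13 and 9.59, 8.52 and 5.99 CPM with vehicle and drug, which overlapped. The 3' UTR peak of Smad7, an inhibitor of TGF-beta signalling, changed by 0.78 ± 0.17 (adjusted p = 0.0111) in CFC mice, a call lost without Veh-CFC 3 or HDACi-CFC 1 (adjusted p up to 0.165 over the alternatives).

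Drug changes in Context and in CFC mice share no library. Of the 22 peaks that rose in CFC mice, 4 (18.2%) also rose in Context mice, beside 1.07% of all gene ends. Of the 14 that fell in CFC mice, 10 (71.4%) also fell in Context mice, beside 6.13% of all gene ends. In 1 peak, at Mir6999, the direction was opposite.

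Whether shock acted differently with and without drug was tested by the interaction. It passed at 4 gene-end peaks, with a more positive shock change in drug mice at each, against 0.034% of all peaks in that direction and 0.000694% in the other. At unadjusted p under 0.05, 582 gene ends were higher and 112 lower, and DESeq2 called 47. The count ran from 0 to 269 when single libraries were left out: it was 52 without Veh-Context 1, 181 without Veh-CFC 1 and 269 without HDACi-Context 1, it was 0 without Veh-Context 3, and it was 1 or 2 without any other library. The peak at the end of Tmem88, a Wnt pathway membrane protein (chr11:69394211-69398883, TTS, strong promoter state, with the nearest start that of Naa38), held 18.3, 21.1 and 22.2 CPM in Veh-Context and 29.5, 28.3 and 22.5 in Veh-CFC. It held 9.39, 8.06 and 6.26 in HDACi-Context and 26.6, 26.9 and 24.4 in HDACi-CFC. The HDACi-Context libraries stood below all others, and the interaction was 1.32 ± 0.20 (adjusted p = 0.00262), past the threshold in 16 of 17 alternatives and at an adjusted p of 0.0688 without Veh-Context 3.

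Hspbp1, a co-chaperone of Hsp70 (chr7:4659162-4661812), showed the same order, with 17.3, 15.5 and 20.4 CPM in Veh-Context, 20.0, 17.2 and 19.4 in Veh-CFC, 8.55, 8.35 and 7.96 in HDACi-Context and 21.4, 16.4 and 20.0 in HDACi-CFC. Its interaction was 1.15 ± 0.20 (adjusted p = 0.0193). Elmo2 (chr2:165287840-165292785, 3' UTR) held 38.9, 41.5 and 45.7 CPM in Veh-Context, 61.1, 57.5 and 43.7 in Veh-CFC, 22.6, 16.5 and 12.2 in HDACi-Context and 48.8, 45 and 50.2 in HDACi-CFC, with an interaction of 1.13 ± 0.21 (adjusted p = 0.037). At both genes the 3 HDACi-Context libraries were below the other 9. The peak at Mir6999 held 3.96, 4.42 and 4.7 CPM in Veh-Context, 6.04, 4.35 and 3.68 in Veh-CFC, 3.34, 2.38 and 1.97 in HDACi-Context and 8.91, 8.11 and 8.23 in HDACi-CFC. Here HDACi-CFC was above and HDACi-Context below all vehicle libraries, with an interaction of 1.61 ± 0.30 (adjusted p = 0.0368). The calls were lost in 9 of 17 alternatives at Hspbp1, 11 of 17 at Elmo2 and 11 of 16 at Mir6999, among them plain library totals and loess scaling (adjusted p up to 0.292, 0.326 and 0.326 over all alternatives).

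At Mir345 the drug and shock changes were also large, without an interaction call. The peak held 4.33, 7.51 and 7.13 CPM in Veh-Context, 13, 9.76 and 6.37 in Veh-CFC, 3.48, 2.14 and 1.56 in HDACi-Context and 9.49, 9.67 and 9.58 in HDACi-CFC. The HDACi-Context libraries were below all the others, the log2 change with drug in Context mice was -1.37 ± 0.26 (adjusted p = 0.000902) and with shock in drug mice 2.0 ± 0.24 (adjusted p = 3.95e-07). The interaction was 1.35 ± 0.34 (adjusted p = 0.105).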

How the data were processed

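H3K27ac ChIP-seq counts per peak were deposited by the authors as 1 table of whole-number, unnormalized counts for 12 immunoprecipitated libraries, in which no count is below 1. The columns name group and replicate but no antibody, and were taken as the H3K27ac libraries. The inputs were not analysed here. Peak width and distance to a start were used as deposited in the same table. The submitters' processing notes name, with no roles given, the mm10 build, HOMER 4.11, DESeq2 1.28.1, DiffBind 2.16.2, MACS2, SAMtools 1.9, Bowtie2 2.3.5 and Trimmomatic 0.38. Whether input was subtracted is not given in the sources used here.

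All 144154 peaks entered the fit in edgeR 4.0.16 (R 4.3.3), with filterByExpr at a minimum count of 10, TMM scaling and the quasi-likelihood test with robust estimation on all 4 groups. The filter removed 140 peaks, and the median biological coefficient of variation was 0.131. Benjamini-Hochberg adjustment ran over all 144014 peaks tested, with a threshold of 0.05. CPM are counts per 1e6 of the TMM-scaled total. The 7 contrasts were drug in each behaviour and over both, shock with each treatment and over both, and the interaction. Gene symbols came from RefSeq (GRCm38.p6) through the annotated transcript for 4749 of 4759 gene-end peaks. Alternatives were library totals, loess scaling (limma 3.58.1), DESeq2 1.42.0, no filter, a replicate block, only the groups compared, no width limit and each library left out. The members and lists were chosen with earlier results of these data known. Named are the 6 largest called changes in each direction and contrast with groups that do not overlap, 1 peak per gene, the 6 highest levels per kb, the immediate early genes and up to 4 called peaks per list and contrast. Bins of gene length, starts inside peaks, gene biotypes, microRNA hairpins, histone genes, state by distance, and the counts without any value at the floor were added after seeing the data. The microRNA and width-limit peaks named, and the peaks at Mir7085 and Gm9748, were chosen after their values were seen. The test was checked on simulated counts.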

Additional observations from a re-analysis of the deposited data

Results flagged for a closer look

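In 52 groups of 6 libraries formed from the named gene-end peaks, 1 library stood apart from the others in 6. Each such group joins both treatments or both behaviours, and the peaks were named in part for their values. No chance rate is therefore set beside this count. The end of Emcn held 13.7 CPM in HDACi-Context 3, the highest of the Context libraries, and that of Tmed10 held 12.2 CPM in the same library, the highest of the drug libraries. Lfng held 3.73 CPM in Veh-CFC 1, the highest of the CFC libraries, and Nsd3 held 3.24 CPM in Veh-Context 2, the highest of the Context libraries. Tdrd3 stood apart in both behaviours, with 5.95 CPM in Veh-CFC 3, above the other CFC libraries, and 6.95 CPM in HDACi-Context 1, below the other Context libraries.

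The effect of shock differed between drug and vehicle mice at 4 gene ends by the interaction test. The differences on the log2 scale were 1.61 at Mir6999, 1.13 at Elmo2, 1.15 at Hspbp1 and 1.32 at Tmem88, each larger in drug mice. As given above, the calls at Mir6999, Elmo2 and Hspbp1 were lost in most alternatives, among them plain library totals and loess scaling. That at Tmem88 was lost only without Veh-Context 3.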

How the results depend on the processing

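Counts of called gene-end peaks over both treatments (2410) and for shock in drug mice (2185) stayed within 1.5 times under every alternative, at 2054 to 2561 and 1667 to 2339 when single libraries were left out. The other ranges without single libraries were 5 to 68 for drug in CFC mice (36), 127 to 702 for drug in Context mice (342), 217 to 500 for drug over both behaviours (331), 80 to 820 for shock in vehicle mice (579) and 0 to 269 for the interaction (4). The cause was not tested. DESeq2 gave 331 calls for shock in vehicle mice. For the interaction it gave 47, library totals gave 1 and loess scaling 1. Same-numbered libraries did not deviate together in every pair of groups (correlations from -0.286 to 0.365). Between Veh-CFC and HDACi-Context the correlations were 0.365, 0.082 and 0.23. Between Veh-Context and HDACi-Context they were -0.286, -0.061 and -0.143. The numbers were therefore not taken as pairs. With the replicate number as a block, calls were 40, 347, 330, 583, 2166, 2383 and 7 for drug in CFC, drug in Context, drug over both, shock in vehicle, shock in drug, shock over both and the interaction. Without peaks at the floor of 1, chosen after seeing the data, they were 36, 337, 331, 550, 2057, 2277 and 4. Of 473 calls of named gene ends and of peaks with a microRNA hairpin or a shown start, 287 passed under every alternative. Among these calls the direction changed at 2, both with loess scaling: Galnt17 in drug mice after shock (log2 change -0.63, adjusted p = 0.506) and Eef1d over both treatments (log2 change -0.0531, adjusted p = 0.951), each with counts at the floor in some libraries. In all, 170 gene-end peaks had a count at the floor, and these counts did not follow depth: 102 were in HDACi-Context 3 (13880504 counts) and 4 in Veh-CFC 1 (7836555 counts).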

Other observations

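The 78 gene-end peaks of 10000 bp or more, which the width limit left out, were all tested. Of these wide peaks 66 rose (84.6%) and 1 fell after shock over both treatments (median log2 change 0.46), beside 44.3% and 6.47% of the narrower gene ends and 21.4% and 19.7% of all peaks. In vehicle mice 19 rose (24.4%, beside 11.7% and 4.41%), and in drug mice 66 rose (84.6%, beside 40.5% and 20.2%). With drug in Context mice 28 fell (35.9%, beside 6.13% and 5.85%) and 3 rose (median -0.30). With drug in CFC mice 9 rose (11.5%, beside 0.464% and 0.483%) and 1 fell (median 0.16). These values are given as a description, with no test against the narrower peaks.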
